A study of Rattus norvegicus with 36 samples.

Results

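Messenger RNA levels of 5 genes of astrocytes and of glutamate uptake were followed in the nucleus accumbens of 9 rats after cocaine place conditioning. The genes were the glutamate transporters Slc1a2 (ENSRNOG00000005479) and Slc1a3 (ENSRNOG00000016163), the glutamine synthetase gene Glul (ENSRNOG00000049560), the water channel gene Aqp4 (ENSRNOG00000016043) and the filament gene Gfap (ENSRNOG00000002919). They are named by identifier for their known roles, by a rule that uses no measured value, although earlier results of these data were known when they were chosen, and are 5 of the 32402 genes listed in the count files. All 5 were among the 15555 genes that passed the filter on low counts.

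The study asked how accumbens transcriptomes differ between rats that do and do not express a preference for a place paired with cocaine. All animals were Sprague-Dawley rats aged 8 weeks, with no genetic modification named in the labels, and each group held 3 of them. Saline rats were given 4 injections of physiological serum, 15 days of withdrawal and a last serum injection. CPPE rats, which expressed the preference, and nCPPE rats, which did not, were given 4 cocaine injections, the same withdrawal and a cocaine challenge of 5 mg/kg. Every rat was then tested in the conditioning apparatus for 18 min, and the series text adds an extinction phase of 12 days. The sources used here do not state the conditioning dose, the sex of the rats or the criterion by which preference was judged. The tissue label is nucleus accumbens throughout, although the extraction protocol also mentions the caudate putamen.

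Astrocytes clear glutamate from the synaptic cleft through the transporters encoded by Slc1a2 (EAAT2) and Slc1a3 (EAAT1), which couple glutamate entry to the sodium gradient. Inside the astrocyte, glutamine synthetase turns glutamate into glutamine, which is returned to neurons. In the rat accumbens, Slc1a2 protein and glutamate uptake are widely studied after withdrawal from cocaine self-administration, a different procedure from the place conditioning used here.

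The windows of 250 bases that end just before an annotated start are shown for the genes on which the results below turn. Slc1a2 and Aqp4 were low together in 1 rat, and Slc1a3 and Glul followed each other across rats. In that 1 rat, 19.5% of tested genes were more than 2-fold below the mean of the others. No link of either pattern to the sequences was tested. The windows are RefSeq sequences of the GRCr8 assembly, which may not be the build used for counting. They are written 5′ to 3′ on the strand of the gene. Capitals mark a GC box (GGGCGG or its reverse complement CCGCCC) or a CCAAT box (CCAAT or its reverse complement ATTGG).
Slc1a2, chr3:109459859-109460108, + strand: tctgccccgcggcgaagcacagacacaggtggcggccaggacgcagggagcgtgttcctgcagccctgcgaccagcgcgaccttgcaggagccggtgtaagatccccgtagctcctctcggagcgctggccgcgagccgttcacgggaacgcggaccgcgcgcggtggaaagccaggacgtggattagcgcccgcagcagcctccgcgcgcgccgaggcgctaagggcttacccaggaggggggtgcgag
Aqp4, chr18:6798843-6799092, - strand: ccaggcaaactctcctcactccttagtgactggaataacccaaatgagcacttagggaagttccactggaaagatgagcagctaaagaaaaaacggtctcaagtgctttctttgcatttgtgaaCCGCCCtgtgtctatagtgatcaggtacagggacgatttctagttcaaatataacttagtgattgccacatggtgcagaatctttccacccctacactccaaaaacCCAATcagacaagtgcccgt
Slc1a3, chr2:59557809-59558058, - strand: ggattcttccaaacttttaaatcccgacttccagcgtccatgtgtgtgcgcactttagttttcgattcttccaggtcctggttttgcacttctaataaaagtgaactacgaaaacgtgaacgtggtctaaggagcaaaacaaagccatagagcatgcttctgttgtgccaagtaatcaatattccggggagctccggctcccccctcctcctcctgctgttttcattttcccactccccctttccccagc
Glul, upstream start, chr13:68519250-68519499, + strand: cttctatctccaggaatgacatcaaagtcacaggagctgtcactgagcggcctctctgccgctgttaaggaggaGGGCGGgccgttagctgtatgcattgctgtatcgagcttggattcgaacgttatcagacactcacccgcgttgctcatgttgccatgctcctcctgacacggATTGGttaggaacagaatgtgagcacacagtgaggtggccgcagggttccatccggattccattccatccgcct
Glul, downstream start, chr13:68575816-68576065, + strand: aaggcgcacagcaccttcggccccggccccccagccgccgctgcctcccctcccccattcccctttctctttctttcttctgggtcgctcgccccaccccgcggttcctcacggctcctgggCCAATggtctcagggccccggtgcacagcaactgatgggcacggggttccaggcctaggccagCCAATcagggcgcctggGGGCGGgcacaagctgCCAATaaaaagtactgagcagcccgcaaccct

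The Slc1a2 window was 71.2% G and C, that of Aqp4 44.8%, that of Slc1a3 48.0% and those of Glul 54.4% and 67.2%. The median over the first windows of 27455 genes was 52.0%. Further annotated starts, not printed, had windows of 45.6% for Slc1a2, 51.6% for Aqp4 and 49.2% and 50.0% for Slc1a3, and none of these held a GC box or a CCAAT box. Neither the printed Slc1a2 window nor that of Slc1a3 held a GC box or a CCAAT box. The printed Aqp4 window held 1 of each, with the GC box on the opposite strand 126 to 121 bases before the start and the CCAAT box 20 to 16 bases before it. The window of the downstream Glul start held 3 CCAAT boxes, at 128 to 124, 65 to 61 and 32 to 28 bases before the start, and a GC box at 48 to 43 bases. Searched on both strands, the GC box occurred in 32.4% and the CCAAT box in 34.3% of the first windows of all genes. Gfap, whose window was 57.6% G and C, had neither. No window of the 5 genes held a TATA box (TATAAA, 13.1% of all genes), a STAT motif (TTCNNNGAA, 7.53%) or a full NFI motif (TTGGC, 5 bases of any kind, GCCAA, 0.0401%). No match of a motif overlapped a match of another. A match describes letters in these windows and no binding was measured.

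Counts summed over the 4 technical replicates of a rat came to between 27724289 and 39067715 per rat. Technical replicates of the 5 genes spread by 0.489% to 4.31% (coefficient of variation), where counting alone gives a single replicate 1.03% to 5.62%. Of 45 chi-square tests of their counts, 5 had p below 0.05, where chance gives about 1 in 20. Summing them was part of the rule for the genes and does not rest on these tests. A rat is 1 sample in every test. The labels number the rats of each group and say nothing more of their origin, so that p-values measure the spread between these rats. The rat Saline 2 stood apart from the other 8, with 19.5% of tested genes more than 2-fold below and 8.66% more than 2-fold above their mean, and the results on Slc1a2 and Aqp4 are given with and without it. RNA came from bulk tissue, in which fewer astrocytes and less RNA per astrocyte cannot be told apart. Levels are in CPM, counts scaled to a common library total with TMM, which are not divided by transcript length and so are not compared between genes.

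Slc1a2, the main glutamate transporter of forebrain astrocytes, had similar levels in most rats and a far lower one in a single control animal. It stood at 387, 45.3 and 394 CPM in Saline 1, 2 and 3. The CPPE rats had 368, 308 and 382 CPM, and the nCPPE rats 351, 233 and 364 CPM, in the order of their numbers. Saline 2 was far below every other rat, nCPPE 2 was the next lowest, and the groups overlapped. The low value of Saline 2 recurred in each of its technical replicates, with 319, 317, 311 and 318 counts. Whether it belongs to the rat or to the handling of its sample was not tested. The summed Slc1a2 count of 1265 in Saline 2 compares with 7291 to 12137 in the other rats.

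Relative to the mean of the other 8 rats, Slc1a2 was 7.58-fold lower in Saline 2 (log2 difference -2.92), and 1.56% of tested genes were as low or lower in that rat. In nCPPE 2 the transporter was 1.56-fold below the mean of the other rats with Saline 2 put aside, and 3.18% of genes were as low there. The group mean ± SD (n = 3 each) was 275 ± 199 CPM for Saline, 353 ± 39.4 CPM for CPPE and 316 ± 72.2 CPM for nCPPE. Their order, with CPPE highest and Saline lowest, lay within the spread of the rats.

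edgeR's log2 difference in Slc1a2 between CPPE and nCPPE rats was 0.16 ± 0.62 (SE), with a 95% interval from -1.24 to 1.56 and an adjusted p of 1.00. That interval covers changes from 0.423-fold to 2.94-fold, since Saline 2 enters the shared estimate of the spread. Without Saline 2 the same difference was 0.16 ± 0.15 with an interval from -0.19 to 0.50, or 0.878-fold to 1.42-fold (adjusted p = 0.971, edgeR). A larger change in either direction lies outside the interval from the 8 remaining rats.

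Against Saline, the sign of the Slc1a2 difference was set by Saline 2. With all rats, the cocaine groups together were higher by 0.28 ± 0.54 on the log2 scale, with a 95% interval from 0.519-fold to 2.84-fold (adjusted p = 0.865, edgeR). Without Saline 2 they were lower, at -0.22 ± 0.15 with an interval from -0.57 to 0.12 (adjusted p = 0.796, edgeR). All 6 cocaine rats then lay below Saline 1 and Saline 3, the closest being CPPE 3 at 382 CPM beside 387 CPM in Saline 1. Of all tested genes, 6.19% likewise had every cocaine rat below both of these controls, a separation looked at after the values were seen. It depended on the scaling. In CPM by total counts without TMM, CPPE 3 was at 395.5, above Saline 1 at 386.2 and Saline 3 at 394.9. The difference did not pass the test under either set of rats. For CPPE rats alone the log2 difference from Saline was 0.36 ± 0.62 with Saline 2 and -0.15 ± 0.17 without it, and for nCPPE rats 0.20 ± 0.62 and -0.30 ± 0.17.

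**Figure D1:**
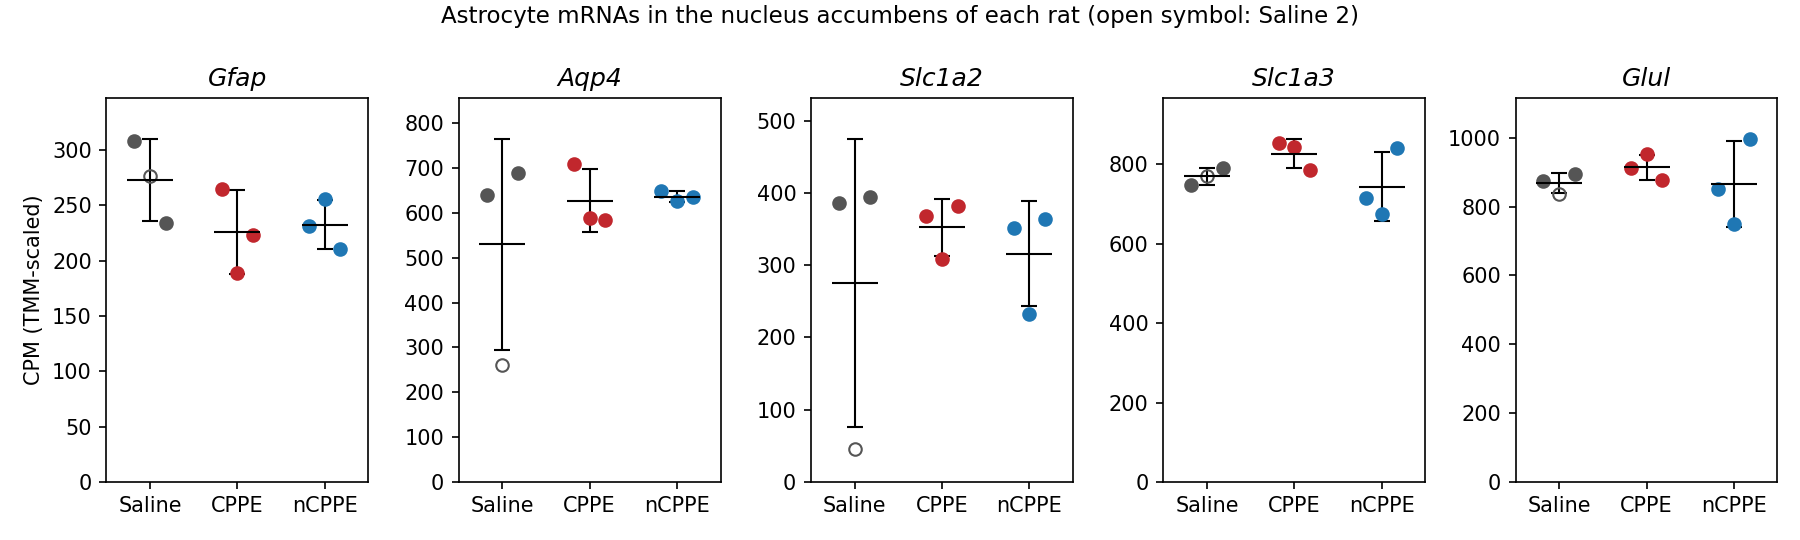
Level of each gene in every rat, in CPM of TMM-scaled library size on axes that start at 0, with 1 panel per gene, the rats grouped as Saline, CPPE and nCPPE and bars for the mean ± SD of 3 rats. The open symbol is Saline 2, which lies at 45.3 CPM for Slc1a2 and 260 CPM for Aqp4, below all other rats, and among the other rats for Gfap, Slc1a3 and Glul.

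Slc1a3, the other astrocyte glutamate transporter, lay between 674 and 853 CPM in all 9 rats, with Saline 2 in between. Its level was 749, 770.5 and 791 CPM in Saline 1, 2 and 3, and 853, 843 and 785 CPM in CPPE 1, 2 and 3. In the nCPPE rats it was 716, 674 and 842 CPM. Saline 2 was in the middle of its group, 2 nCPPE rats were the lowest of all, and nCPPE 3 was level with the highest CPPE rats. The mean ± SD (n = 3 each) was 770.1 ± 21.3 CPM for Saline, 827 ± 36.8 CPM for CPPE and 744 ± 87.5 CPM for nCPPE.

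The difference of CPPE from nCPPE rats in Slc1a3 was 0.15 ± 0.12 on the log2 scale, with a 95% interval from -0.13 to 0.43 (adjusted p = 1.00, edgeR). This is a ratio of 1.11 with an interval from 0.915 to 1.35, and the groups overlapped through nCPPE 3. It was 0.09 without nCPPE 2 and 0.25 without nCPPE 3. limma-voom with sample quality weights gave 0.17 with an unadjusted p of 0.0399 and an adjusted p of 0.997, so that Slc1a3 did not pass the test by this tool either. Against Saline the log2 difference was 0.10 ± 0.12 in CPPE and -0.05 ± 0.12 in nCPPE rats, each within its own error. The Saline rats are shared by these 2 comparisons.

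Glul, whose product converts glutamate to glutamine, lay between 749 and 996 CPM in all 9 rats, again with Saline 2 in between. Its level was 875, 837 and 895 CPM in Saline 1, 2 and 3, and 911, 951 and 878 CPM in CPPE 1, 2 and 3. In nCPPE 1, 2 and 3 it was 850.1, 749 and 996 CPM. The nCPPE group held both the lowest and the highest rat and enclosed the other groups. Glul averaged 869 ± 29.2 CPM for Saline, 913 ± 36.9 CPM for CPPE and 865 ± 124 CPM for nCPPE (mean ± SD, n = 3 each). The log2 difference between CPPE and nCPPE rats was 0.08 ± 0.13, with a 95% interval from -0.22 to 0.38 (adjusted p = 1.00, edgeR). Against Saline it was 0.07 ± 0.13 in CPPE and -0.01 ± 0.13 in nCPPE rats. Pseudogenes of Glul are annotated in the rat genome, and reads shared with them could have been lost or split in the counting.

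Aqp4, which encodes the water channel of astrocyte endfeet around blood vessels, resembled Slc1a2 in being low in Saline 2. It stood at 641, 260 and 688 CPM in Saline 1, 2 and 3, and at 709, 588 and 585 CPM in CPPE 1, 2 and 3. The nCPPE rats had 649, 626 and 635 CPM. Saline 2 was again far below all others, and the remaining 8 rats overlapped across the groups. Saline 2 was 2.46-fold below the mean of the other rats (log2 difference -1.30), and 14.2% of tested genes were as low or lower in it.

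Aqp4 averaged 530 ± 235 CPM for Saline, 627 ± 70.9 CPM for CPPE and 637 ± 11.5 CPM for nCPPE (mean ± SD, n = 3 each). CPPE and nCPPE rats differed by -0.02 ± 0.31 on the log2 scale (95% interval -0.72 to 0.68, adjusted p = 1.00, edgeR), and without Saline 2 the interval was -0.21 to 0.17. The cocaine groups together differed from Saline by 0.25 ± 0.27 (adjusted p = 0.825, edgeR). Without Saline 2 this was -0.07 ± 0.08 with an interval from -0.26 to 0.12, so that the sign rested on that rat. By group, the difference from Saline was 0.24 ± 0.31 in CPPE and 0.27 ± 0.31 in nCPPE rats with Saline 2, and -0.08 ± 0.09 and -0.06 ± 0.09 without it.

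Gfap, the intermediate filament gene that rises when astrocytes become reactive, had its highest mean in the Saline rats. It was at 308, 277 and 234 CPM in Saline 1, 2 and 3, and at 265, 189 and 223 CPM in CPPE 1, 2 and 3. The nCPPE rats had 232, 255 and 211 CPM. Saline 1 was the highest and CPPE 2 the lowest rat, and Saline 3 lay within the range of the cocaine rats. Gfap averaged 273 ± 36.9 CPM for Saline, 226 ± 38.2 CPM for CPPE and 233 ± 22.3 CPM for nCPPE (mean ± SD, n = 3 each).

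Gfap differed between the cocaine groups and Saline by -0.25 ± 0.14 on the log2 scale, with a 95% interval from -0.57 to 0.07 (unadjusted p = 0.106, adjusted p = 0.825, edgeR). Of the 5 genes it had the lowest unadjusted p of this comparison. All 6 cocaine rats were below the Saline mean of 273 CPM, but CPPE 1 at 265 CPM and nCPPE 2 at 255 CPM were above Saline 3 at 234 CPM. The share of all genes placed like this was not computed. The size of the difference depended on single controls, at -0.15 without Saline 1, -0.24 without Saline 2 and -0.35 without Saline 3. Separately, CPPE rats differed from Saline by -0.27 ± 0.16 and nCPPE rats by -0.23 ± 0.16, with adjusted p of 0.882 and 0.937 in edgeR. The CPPE difference was -0.17 without Saline 1 and -0.16 without CPPE 2, and the nCPPE difference -0.13 without Saline 1. CPPE and nCPPE rats differed by -0.04 ± 0.16, with an interval from -0.41 to 0.33 (adjusted p = 1.00, edgeR).

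**Figure D2:**
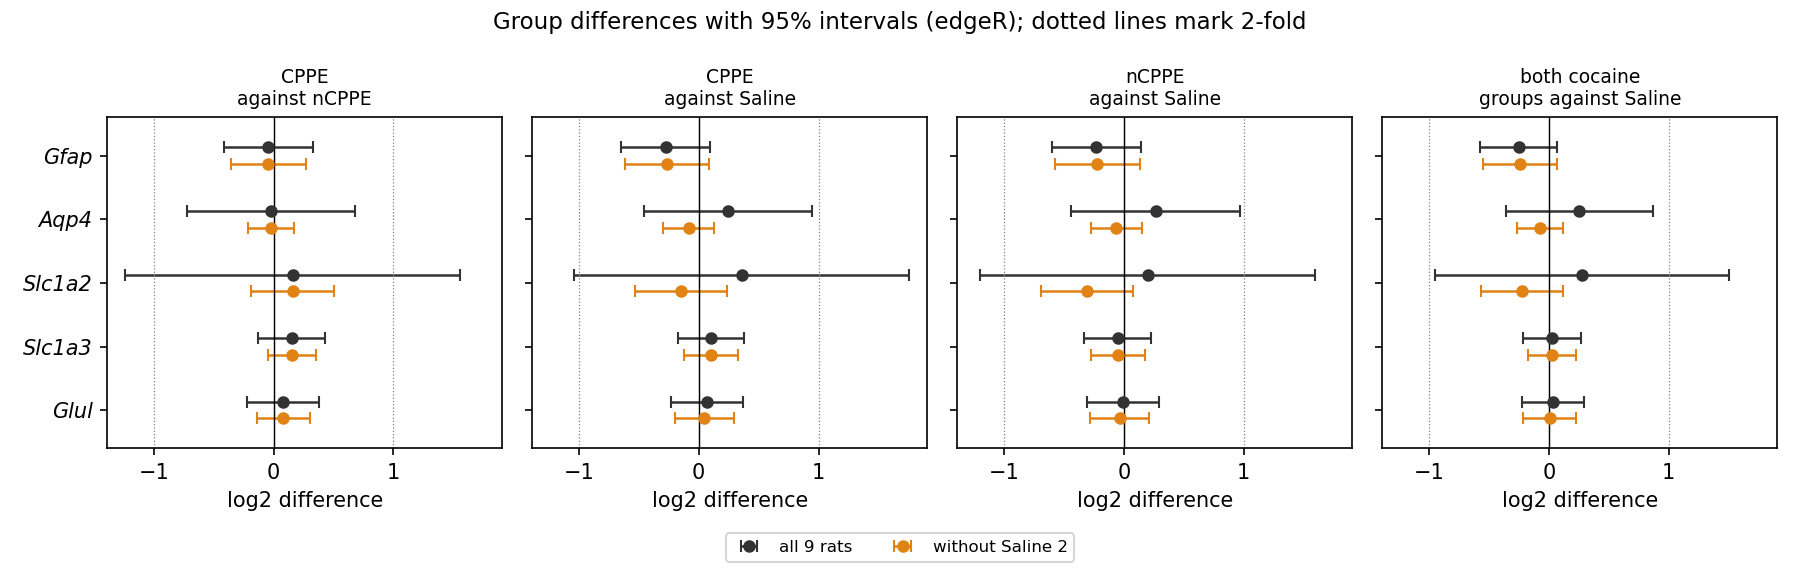
Log2 difference of each gene in the 4 comparisons, with 95% intervals from edgeR, for all 9 rats (dark) and without Saline 2 (orange); dotted lines mark a 2-fold change. All intervals include 0. All shorten without Saline 2, those of Slc1a2 and Aqp4 most. Between CPPE and nCPPE rats that of Slc1a2 went from -1.24 to 1.56 down to -0.19 to 0.50. That of Slc1a3 went from -0.13 to 0.43 down to -0.05 to 0.35.

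Across the comparisons, none of the 5 genes passed the test at an adjusted p below 0.05. In CPPE against nCPPE rats edgeR called 0 of the 5 genes and 0% of all tested genes, and 84 genes (0.540%) had an unadjusted p below 0.05, none of them of the 5. The groups overlapped for all 5 genes, where 8.49% of all tested genes did not overlap. DESeq2 called 1 gene and limma-voom 0 in this comparison, and the gene called was not of the 5. In CPPE against Saline the calls were again 0 of 5 and 0% of all genes, 139 genes (0.894%) had an unadjusted p below 0.05, and 5.72% of genes did not overlap while the 5 all did. In nCPPE against Saline there were 0 of 5 and 0%, with 179 genes (1.15%) at an unadjusted p below 0.05 and 4.02% of genes not overlapping. For the cocaine groups together against Saline there were 0 of 5 and 0%, with 193 genes (1.24%) at an unadjusted p below 0.05 and 1.03% of genes not overlapping. The last 3 comparisons share their Saline rats. These shares at an unadjusted p below 0.05 are under the 1 in 20 that chance gives, and Saline 2 enters the spread used in every comparison. The 0 calls therefore do not show that the groups are alike. Without Saline 2 edgeR again called 0 genes in each comparison. Then 556, 929, 964 and 1055 of 15750 genes had an unadjusted p below 0.05, in the same order.

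Taken by direction alone, 3 of the 5 genes had a higher mean in CPPE than in nCPPE rats on the fitted log2 scale, with a median of 0.08 beside -0.0011 over all tested genes. Against Saline, 4 of 5 were higher in CPPE (median 0.10, all genes -0.01), 2 of 5 in nCPPE (median -0.01, all genes -0.01) and 4 of 5 in the cocaine groups together (median 0.03, all genes -0.01). Slc1a2 and Aqp4 are among those higher against Saline in each case, and both turn lower without Saline 2.

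The 5 genes differed in how widely the rats of a group were spread. With Saline 2 left out, the within-group SD of log2 CPM was 0.25 for Slc1a2 and 0.22 for Gfap, and 0.11, 0.12 and 0.14 for Aqp4, Slc1a3 and Glul. Among the 2066 genes that averaged 100 CPM or more the median was 0.09, so that all 5 spread more than the median gene. Of these genes 97.2% spread no more than Slc1a2, 95.1% no more than Gfap, 75.6% no more than Glul, 66.3% no more than Slc1a3 and 60.9% no more than Aqp4. edgeR's biological coefficient of variation for Slc1a2 fell from 51.6% with all rats to 13.5% without Saline 2, and that of Aqp4 from 27.5% to 7.87%. For Gfap it went from 16.7% to 12.4%, for Slc1a3 from 13.7% to 8.13% and for Glul from 14.2% to 8.88%, where the common value over all genes went from 26.2% to 11.8%.

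**Figure D3:**
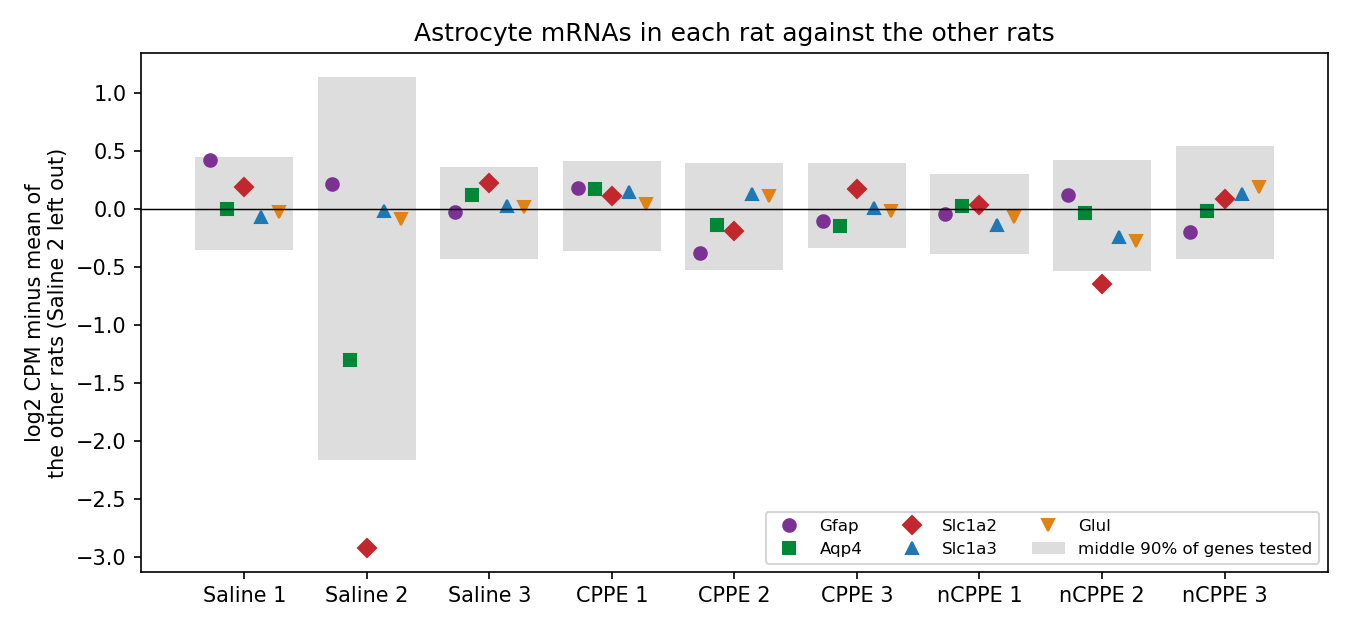
Log2 level of each gene in each rat minus the mean of the other rats (Saline 2 left out of that mean), with the range from the 5th to the 95th percentile of all tested genes in that rat. Saline 2 is the sole rat with any of the 5 genes beyond 2-fold, Slc1a2 at -2.92 and Aqp4 at -1.30; nCPPE 2 follows with Slc1a2 at -0.64.

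Saline 2 was thus low in 2 of the 5 genes and near the other rats in the other 3, at 0.22 for Gfap, -0.02 for Slc1a3 and -0.08 for Glul on the log2 scale. In no other rat did any of the 5 genes lie more than 2-fold from the mean of the rest. Few genes did so in those rats, with 0.289% to 1.22% of tested genes below and 0.231% to 1.31% above. Saline 2 also had the fewest genes with a count, 18351 beside 19023 to 19319 in the other rats, and the part of this in its low Slc1a2 and Aqp4 was not tested.

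Ratios between genes within a library do not depend on the scaling between libraries. The ratio of Slc1a2 to Slc1a3 counts in Saline 2 was 7.51-fold below the mean of the other 8 rats, whose log2 values lay between -0.35 and 0.23 of that mean. The ratio of Glul to Slc1a2 was 7.18-fold above the mean of the other rats in Saline 2, and that of Gfap to Slc1a2 8.85-fold above. In nCPPE 2 the Gfap to Slc1a2 ratio was 1.59-fold above that mean. Each of these ratios contains Slc1a2, so the values in Saline 2 are not separate results from its low Slc1a2.

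Between CPPE and nCPPE rats the 3 ratios differed by 0.02, -0.09 and -0.23 on the log2 scale in the order just given, with exact permutation p of 1.0, 0.6 and 0.7 (two-sided, smallest possible 0.1). Between the cocaine groups and Saline the differences were 0.77, -0.77 and -1.05, with exact permutation p of 0.333, 0.333 and 0.143 (two-sided, smallest possible 0.0119) and adjusted p of 0.667 each over the 6 comparisons. Without Saline 2 they were -0.27, 0.24 and 0.0037, with exact permutation p of 0.0714, 0.107 and 0.964 (smallest possible 0.0357). None of the ratio comparisons passed the test. Those of CPPE with nCPPE rats could not have passed, their smallest possible p being 0.1. Nor could those against Saline without Saline 2, once adjusted over the 6 comparisons. Neither set can therefore decide whether the ratios differ. With all rats, the differences from Saline were set by Saline 2 and changed sign without it. Their p-values reflect which group holds that rat and cannot decide it either.

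Among the 10 pairs of genes, Slc1a3 and Glul followed each other across rats. Over the 8 rats without Saline 2, Pearson's r of their log2 CPM was 0.911 (exact permutation p = 0.00045, adjusted p = 0.0045) and Spearman's rho 0.905 (exact permutation p = 0.0046, adjusted p = 0.0456). nCPPE 2 was lowest in both genes, nCPPE 1 next lowest in both once Saline 2 is left out, and CPPE 2 and nCPPE 3 were high in both. With Saline 2 included r was 0.897, and after the group means were removed it was 0.946. After that centring Spearman's rho lost the call (0.881, permutation adjusted p = 0.0724, approximate since centred values depend on each other within a group). It also lost it without any 1 of Saline 1, Saline 3, CPPE 3, nCPPE 1 or nCPPE 2 (0.857, exact permutation adjusted p = 0.238 each). Without the 2 rats farthest from the median of Slc1a3, r was 0.757 over 6 rats (exact permutation p = 0.0736), so that the call rests on those rats while the sign did not change. Without nCPPE 2 alone it was 0.828 (exact permutation p = 0.0194, adjusted p = 0.194). Within single groups 3 rats are too few for a value.

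The other 9 pairs had adjusted p of 0.479 or more by exact permutation. The next highest r was 0.619, for Slc1a2 with Glul, followed by 0.526 for Slc1a2 with Slc1a3 and 0.494 for Gfap with Aqp4. Gfap ran opposite to Slc1a3 and Glul in sign, at -0.413 and -0.465. Slc1a2 and Aqp4 had an r of 0.305 over 8 rats, and of 0.966 with Saline 2, a value set by that rat. All pairs share the same 9 libraries and their scaling.

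**Figure D4:**
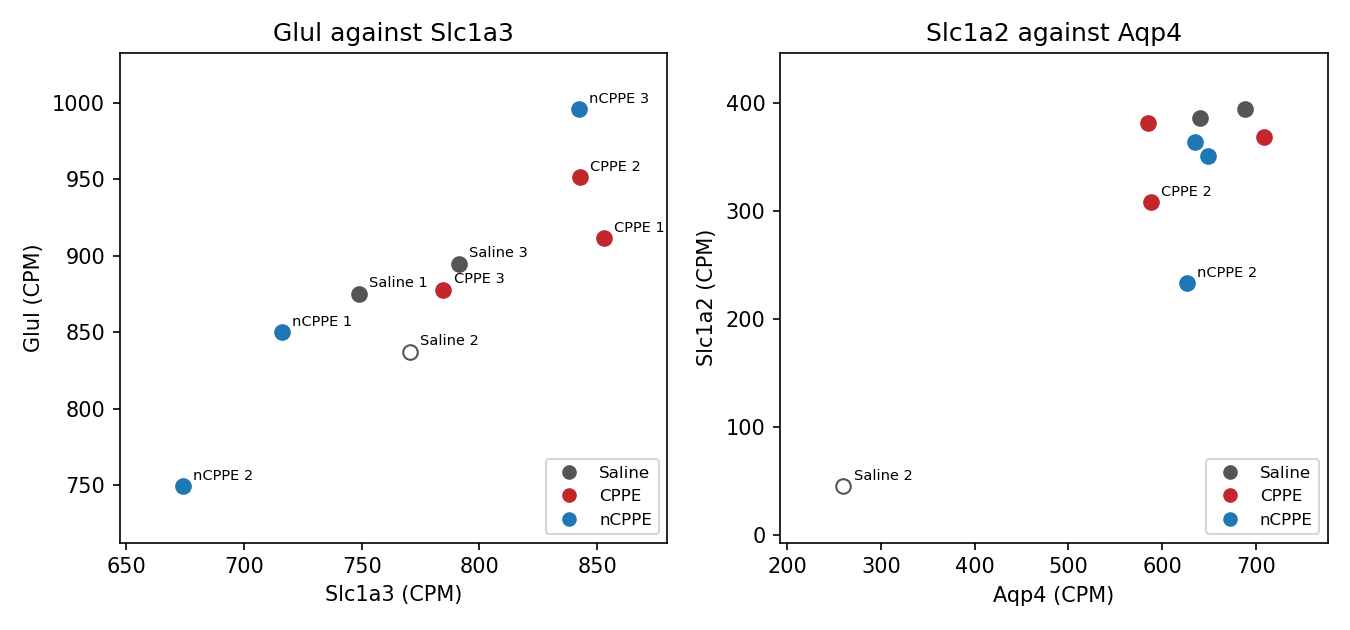
Left, Glul against Slc1a3, and right, Slc1a2 against Aqp4, in CPM, with 1 point per rat coloured by group and the open symbol for Saline 2. On the left the rats run from nCPPE 2 at 674 and 749 CPM up to nCPPE 3 at 842 and 996 CPM; on the right Saline 2 lies alone at 260 and 45.3 CPM.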

How the data were processed

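Polyadenylated RNA from 300 ng of total RNA was sequenced with a strand-specific kit, per the labels' protocols. The authors deposited unnormalized whole-number counts of reads for each Ensembl gene in 36 files (4 technical replicates of each of 9 rats). The submitters' processing notes name HTSeq 0.5.3, STAR and bcl2fastq 2.18.0.12. The build, the annotation and the counting's strand option are not stated in the sources used here, so genes that overlap another carry uncertain counts.

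Counts were summed per rat, filtered with filterByExpr and scaled with TMM. edgeR 4.0.16 (R 4.3.3) quasi-likelihood F-tests used the counts of all 9 rats with only group in the model, and Benjamini-Hochberg adjustment ran over 15555 genes, with a threshold of 0.05. Standard errors were the size of the log2 difference divided by the square root of its F statistic in these fits. The 95% intervals were built on them, and both rest on a spread shared by all groups. Correlations used log2 CPM with a prior count of 2, and log2 count ratios were compared by exact permutation over rats. Alternatives used DESeq2 1.42.0, limma 3.58.1, other scalings and filters, a replicate block and fits without each rat.

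The genes and the lists were chosen with earlier results of these data known, though the rule for the genes uses no measured value. By the rule for named genes, the 5 genes are named in every comparison, and beside them the 2 genes most like and the 2 least like their mean pattern, among genes of at least 1 CPM. Member symbols are those given with the identifiers. The reference table held 0 Ensembl identifiers, so lists of astrocyte, reactive astrocyte, glutamate cycle, neuron and other cell type markers could not be matched and give no value, and the tissue label was not checked against markers other than the 5 genes.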

Additional observations from a re-analysis of the deposited data

Results flagged for a closer look

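The ratio of Gfap to Slc1a2 counts in nCPPE 2 lay apart from those of the other 5 cocaine rats. The gap from nCPPE 2 to the nearest of them was 0.658 of the whole range of the 6 rats, above Dixon's 95% critical value for 6 samples. Relative to the mean of the 8 rats without Saline 2, the log2 ratio was 0.67 in nCPPE 2 and between -0.25 and 0.06 in the other cocaine rats. Slc1a2 was the lowest of the 6 in that rat, at 233 CPM, and Gfap was the second highest, at 255 CPM. It was the sole one of 8 measures examined to be marked, and chance marks about 1 in 20 groups.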

How the results depend on the processing

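Recomputing the 20 differences of the 5 genes under the alternatives gave 335 values. None passed the threshold (lowest adjusted p 0.464, edgeR without Saline 3), and 28 had the other sign. Gfap against Saline kept its sign under all alternatives, and Slc1a3 between CPPE and nCPPE rats likewise, but leaving out 1 rat moved both by over 1.5 times. Gfap then ran from -0.401 to -0.162 in CPPE, from -0.330 to -0.127 in nCPPE and from -0.352 to -0.149 in both against Saline, and Slc1a3 between CPPE and nCPPE rats from 0.0857 to 0.250. The sign of Glul in nCPPE against Saline turned on total counts (0.0231) and without the filter (0.00423). limma-voom with quality weights turned Aqp4 (-0.0572, -0.0348 and -0.0460 in CPPE, nCPPE and both against Saline), Slc1a2 (-0.0786, -0.251 and -0.165) and Glul in both against Saline (-0.0131). DESeq2 called 1 gene in CPPE against nCPPE, 1 in nCPPE against Saline (ENSRNOG00000016164 each time) and 1 in both cocaine groups against Saline (ENSRNOG00000008118).

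Leaving out each rat in turn gave, for CPPE against nCPPE, -0.176 to 0.0694 for Gfap, -0.119 to 0.0271 for Aqp4, -0.0198 to 0.272 for Slc1a2 and -0.0148 to 0.192 for Glul. For CPPE against Saline it gave -0.0828 to 0.478 for Aqp4 and -0.146 to 0.708 for Slc1a2. For nCPPE against Saline it gave -0.0614 to 0.499 for Aqp4, -0.304 to 0.549 for Slc1a2, -0.148 to 0.0165 for Slc1a3 and -0.120 to 0.0864 for Glul. For both against Saline it gave -0.0721 to 0.488 for Aqp4, -0.225 to 0.629 for Slc1a2, -0.0230 to 0.0593 for Slc1a3 and -0.0243 to 0.079 for Glul.

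The correlations that turned were Gfap with Aqp4 (-0.242) and with Slc1a2 (-0.311) over all 9 rats, Gfap with Slc1a2 after centring on group means (-0.120), and Aqp4 with Slc1a3 (-0.126) and Glul (-0.233) on total counts. Without the 2 rats farthest from the median of the x measure, r was -0.439 for Gfap and Slc1a2, -0.203 for Aqp4 and Slc1a3, -0.132 for Aqp4 and Glul, -0.0925 for Slc1a2 and Glul, and 0.757, no longer past the threshold, for Slc1a3 and Glul. Leaving out each rat gave ranges of -0.123 to 0.657 for Gfap and Slc1a2, -0.227 to 0.366 for Aqp4 and Slc1a3, -0.140 to 0.225 for Aqp4 and Glul, -0.296 to 0.693 for Slc1a2 and Slc1a3, -0.383 to 0.780 for Slc1a2 and Glul and 0.828 to 0.953 for Slc1a3 and Glul. For the ratios it gave -0.115 to 0.137, -0.217 to 0.0146 and -0.417 to 0.0427 between CPPE and nCPPE rats, and -0.266 to 1.30, -1.27 to 0.243 and -1.68 to 0.0037 against Saline, for Slc1a2 over Slc1a3, Glul over Slc1a2 and Gfap over Slc1a2.

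Rats with the same number in different groups did not consistently deviate together (2 of 9 pairs over 0.1, r from -0.447 to 0.257, and 2 of 9 rats best with their own number). These deviations are from group means that include Saline 2. They cannot show whether the numbers pair animals, which the labels do not state. A replicate block called 0 genes, while 64, 123, 130 and 162 genes had unadjusted p below 0.05. It gave an exact permutation p of 0.037 for Gfap over Slc1a2 against Saline (adjusted 0.222), the smallest p possible there. That difference was -1.05 with all rats and, without the block, 0.0037 once Saline 2 was left out. Slc1a2 and Aqp4 turned lower against Saline in the fits without Saline 2, and the cause of the other turns was not tested.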

Other observations

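Across the 8 rats without Saline 2, the likeness of Slc1a3 and Glul can be set beside that of all genes averaging 1 CPM or more. Glul was the 22nd of 13766 genes by Pearson's r with Slc1a3, and 40 genes reached an r of 0.9 with Slc1a3. Slc1a3 was the 71st of 13766 by r with Glul, where 91 genes reached 0.9. A high r over 8 rats was thus also found for other genes.

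The genes whose level most resembled the mean standardised pattern of the 5 genes, among 13762 others, were ENSRNOG00000037765 (r = 0.97) and ENSRNOG00000017876 (r = 0.968). The least alike were ENSRNOG00000004301 (r = -0.968) and ENSRNOG00000007921 (r = -0.960). With Saline 2 included, r was 0.749 and 0.960 for the first pair and 0.274 and -0.928 for the second. ENSRNOG00000037765 was at 1.08 CPM in Saline 2 and between 10.5 and 13.4 CPM in the other rats. These are the extremes of many genes over few rats and are given as a description.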
